A study of Mus musculus with 9 samples.

Results

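The genes described here are the 7 subunits of respiratory complex I that are encoded in mitochondrial DNA: mt-Nd1, mt-Nd2, mt-Nd3, mt-Nd4, mt-Nd4l, mt-Nd5 and mt-Nd6. They were taken by symbol, position on chromosome MT and protein-coding class, and all 7 were found among the 54532 genes of the deposited table and among its 37 chromosome MT genes. The other 6 mitochondrial mRNAs, which encode subunits of complexes III, IV and V, serve as the closest comparison. RNA was sequenced from mouse male germ cells labelled PD 35 and titled spermatocytes. Of the 9 libraries, 3 were labelled ClpX knockout, 3 ClpP knockout and 3 WT. The knockouts are conditional (cKO): Stra8-Cre, a Cre recombinase driven by a promoter that becomes active in late spermatogonia, removed Clpx or Clpp in germ cells, so other testis cells keep both genes. ClpP degrades proteins inside the mitochondrial matrix, and its partner ClpX is an ATPase that unfolds substrates for it. The study asked how the loss of either affects mitochondria during spermatogenesis. The labels do not give the method of cell isolation, whether controls carried Cre, or whether the libraries of a group came from separate animals, so a p-value here reflects the spread among these libraries and nothing beyond it.

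Complex I takes electrons from NADH, passes them to ubiquinone and pumps protons across the inner mitochondrial membrane. Its peripheral arm, which holds the NADH site and the iron-sulfur clusters, is built from nuclear genes, whereas the 7 mitochondrial subunits form the core of the membrane arm. ND1 sits where the arms meet, beside the ubiquinone site. ND2, ND4 and ND5 are the antiporter-like proton-pumping subunits, and ND3, ND4L and ND6 are small subunits that link the ubiquinone site to the pumps. Mouse mitochondrial DNA is transcribed from both strands as long RNAs, from which tRNAs are cut to free the mRNAs and rRNAs between them. The mRNA of ND6 alone comes from the opposite strand. Spermatocytes and spermatids draw on mitochondrial respiration, which oxidises lactate supplied by Sertoli cells.

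In the GRCm38 coordinates of the table, mt-Nd1 (ENSMUSG00000064341) lies at MT:2751-3707 and mt-Nd2 (ENSMUSG00000064345) at MT:3914-4951. The genes mt-Nd3 (ENSMUSG00000064360) at MT:9459-9806, mt-Nd4l (ENSMUSG00000065947) at MT:9877-10173, mt-Nd4 (ENSMUSG00000064363) at MT:10167-11544 and mt-Nd5 (ENSMUSG00000064367) at MT:11742-13565 follow on the same plus strand. On the minus strand, mt-Nd6 (ENSMUSG00000064368) takes MT:13552-14070. None of these genes has an intron, and their annotated transcripts run from 297 bases in mt-Nd4l to 1824 bases in mt-Nd5. The length of mt-Nd4, 1378 bases, leaves 1 base after the last whole codon. In mitochondrial mRNAs of this kind the poly(A) tail completes the stop codon. The neighbours mt-Nd4l and mt-Nd4 share 7 bases in different reading frames, as the last 30 bases of mt-Nd4l and the first 30 of mt-Nd4 show, with the shared bases in capitals. These and the sequences below are from GENCODE M21 transcripts on GRCm38, written 5′ to 3′ on the gene's own strand.
mt-Nd4l: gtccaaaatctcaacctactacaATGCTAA
mt-Nd4: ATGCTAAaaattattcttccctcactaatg
The genes mt-Nd5 and mt-Nd6 run towards each other, and 14 bases, in capitals in the last 30 bases of each, belong to both genes on opposite strands.
mt-Nd5: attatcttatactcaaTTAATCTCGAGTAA
mt-Nd6: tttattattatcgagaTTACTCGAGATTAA
Reads in these stretches cannot be given to 1 gene by position alone. Whether the reads were counted by strand is not given in the sources used here, so reads of mt-Nd6 and of any RNA from the opposite strand of its locus cannot be told apart.

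The strands differ in base composition, which is visible in the first 60 bases of mt-Nd2 and mt-Nd6 with every G in capitals.
mt-Nd2: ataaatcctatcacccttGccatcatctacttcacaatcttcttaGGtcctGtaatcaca
mt-Nd6: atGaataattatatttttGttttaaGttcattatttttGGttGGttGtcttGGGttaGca
Over the whole gene, mt-Nd6 is 28.1% G and 5.97% C. In the other 6 members G makes up 8.0% to 11.6% of bases and C 22.1% to 29.97%. In total G and C content mt-Nd6, at 34.1%, lies within the 33.05% to 41.1% of the others.

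Part of the mitochondrial genome is also present in the nucleus, as a stretch of annotated pseudogenes on the minus strand of chromosome 1. In the table these are Gm29216, Gm28661, Gm10925, Gm28437, Gm28438, Gm10222 and Gm28439, and 3 of them copy a member. Gm28438 (chr1:24612775-24613119) matches mt-Nd3 in 344 of 345 bases, Gm10222 (chr1:24612407-24612700) matches mt-Nd4l in 294 of 294, and Gm28439 (chr1:24611535-24612410) matches the first 876 bases of mt-Nd4 in 876 of 876. The only base that separates mt-Nd3 from its copy is T3C, counted from 1 at the 5′ end with the mitochondrial base first. It stands in capitals in the first 60 bases of each, of which the copy occupies chr1:24613060-24613119.
mt-Nd3: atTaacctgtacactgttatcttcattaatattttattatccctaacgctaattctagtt
Gm28438: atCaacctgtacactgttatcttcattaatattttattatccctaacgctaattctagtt
The annotated copy of mt-Nd4 ends inside the gene. The 60 bases of mt-Nd4 around that end, MT:11013-11072, are shown with the bases past it in capitals.
mt-Nd4: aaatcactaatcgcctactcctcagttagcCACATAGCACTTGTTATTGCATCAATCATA
Of all 100-base windows of a member, the share found in no other annotated transcript was 100% for mt-Nd1, mt-Nd5 and mt-Nd6 and 96.8% for mt-Nd2, but 39.2% for mt-Nd4 (502 of 1279 windows). It was 2.41% for mt-Nd3 (6 of 249) and 1.52% for mt-Nd4l (3 of 198). The windows that mt-Nd2 shared were found in Gm13339. With 50-base windows 91.8% were unique in mt-Nd2, and 92.4% in mt-Nd5, which then shared sequence with Gm11407 and Gm4076. The annotated copies of mt-Nd3 and mt-Nd4l stop 3 bases short of the mitochondrial genes, and 3 of the windows that count as unique in each gene are unique through those last bases only. For mt-Nd4l those bases are on chromosome 1 too. Gm28439 overlaps the end of Gm10222 and begins with the 7 bases that mt-Nd4 shares with the end of mt-Nd4l. How reads that match both places were counted is not given in the sources used here.

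The libraries held 14334436 to 17021685 reads assigned to genes. Each FPKM value (reads relative to gene length and to library size) times gene length was a whole multiple of a fixed step per library for 100% of values within 0.01 of a step, which gave the reads per gene. The 7 members together received 150810 to 183216 reads in the ClpX cKO libraries, 92986 to 95669 in the ClpP cKO libraries and 49784 to 57451 in the controls. Each target had a lower level in its own knockout. In ClpP cKO, Clpp (log2 change -0.77) and the untargeted Clpx (-0.58) were both lower than in controls. The fall of Clpp there does not by itself show the deletion. Clpx had 13.4 ± 2.14 FPKM in ClpX cKO, 37.5 ± 2.42 in ClpP cKO and 56.5 ± 2.41 in controls, and Clpp had 13.1 ± 0.852 FPKM in ClpX cKO, 5.0 ± 1.24 in ClpP cKO and 9.06 ± 0.522 in controls (SD, n = 3 each). Summed FPKM of 12 pachytene spermatocyte markers was 2005 to 2630 in ClpX cKO, 2720 to 2807 in ClpP cKO and 3629 to 3775 in controls, and markers of other cell types were also measured, at values given with the results they accompany. In such bulk material, fewer cells of a type and less RNA per cell cannot be told apart.

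All 7 complex I genes of the mitochondrial genome had higher levels in ClpX cKO than in control libraries, by 2.42 times (mt-Nd5) to 3.28 times (mt-Nd3) on the scale of FPKM + 1. In ClpP cKO the members were 1.37 times (mt-Nd4l) to 1.75 times (mt-Nd3) the control level, and 6 of the 7 passed the test. The test was limma on log2(FPKM + 1) over 17266 genes with a mean of at least 1 FPKM, and calls were made where p after Benjamini-Hochberg adjustment was under 0.05. Of all genes tested, 65.6% were called in ClpX cKO and 44.7% in ClpP cKO. Called higher were 32.1% in ClpX cKO and 20.7% in ClpP cKO, and called lower 33.5% and 24.0%. With all 3 knockout libraries above all 3 controls were 7 of 7 members in each comparison, against 34.8% of all genes in ClpX cKO and 31.2% in ClpP cKO. The members stood near the upper end of that distribution. Ranked by log2 change among the 17266 genes, they took places 38 to 100 from the top in ClpX cKO, and places 176 to 1792 in ClpP cKO. Both comparisons use the same 3 controls. For the gene at the ubiquinone site and those of the proton pumps, the values in each library follow.

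The most abundant member, mt-Nd1, had 3122, 3363 and 3557 FPKM in the ClpX cKO libraries, 1952, 1841 and 1891 FPKM in the ClpP cKO libraries, and 1113, 1162 and 1132 FPKM in the controls. The groups did not overlap, and within each group the libraries lay close together. The log2 change against control was 1.56 in ClpX cKO (SE 0.11, limma adjusted p = 0.00039) and 0.74 in ClpP cKO (SE 0.11, adjusted p = 0.0086). Of the pumping subunits, mt-Nd2 had 1830, 2151 and 2200 FPKM in ClpX cKO, 1082, 1145 and 1068 FPKM in ClpP cKO, and 660, 683 and 671 FPKM in controls. ClpX cKO 1 was the lowest of its group, yet all ClpX cKO values lay above all ClpP cKO values and these above all controls. The log2 change was 1.61 in ClpX cKO (SE 0.10, adjusted p = 0.00038) and 0.71 in ClpP cKO (SE 0.10, adjusted p = 0.0086).

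The second pump gene, mt-Nd4, had 1315, 1486 and 1551 FPKM in ClpX cKO, 806, 937 and 846 FPKM in ClpP cKO, and 547, 559 and 550 FPKM in controls. The 3 groups were again separate. Its log2 change was 1.39 in ClpX cKO (SE 0.10, limma adjusted p = 0.00045) and 0.64 in ClpP cKO (SE 0.10, adjusted p = 0.0086). ND5 lies at the far end of the membrane arm. Its gene mt-Nd5 had 952, 1283 and 1231 FPKM in ClpX cKO, 636, 741 and 704 FPKM in ClpP cKO, and 430, 511 and 479 FPKM in controls. The groups were separate, but ClpX cKO 1 was well below the other ClpX cKO libraries. Its log2 change, 1.28 in ClpX cKO (SE 0.14, adjusted p = 0.00045) and 0.55 in ClpP cKO (SE 0.14, adjusted p = 0.015), was the smallest of the 7 in ClpX cKO. Its ClpP cKO call was lost without Control 1 (adjusted p = 0.0544), without ClpP cKO 2 (0.0578) or without ClpP cKO 3 (0.052). With no filter on low values the ClpP cKO calls of mt-Nd5 (adjusted p = 0.0675), mt-Nd1 (0.0685) and mt-Nd6 (0.0903) were lost.

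Among the connecting subunits, mt-Nd6, the member transcribed from the other strand, had 952, 1152 and 1179 FPKM in ClpX cKO, 516, 713 and 629 FPKM in ClpP cKO, and 417, 442 and 448 FPKM in controls. The groups did not overlap, and replicate 1 was the lowest library in each. The log2 change was 1.32 in ClpX cKO (SE 0.14, limma adjusted p = 0.00045) and 0.49 in ClpP cKO (SE 0.14, adjusted p = 0.022). Without Control 1, Control 2, ClpP cKO 2 or ClpP cKO 3 the adjusted p in ClpP cKO was 0.0551 to 0.079.

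The other connecting subunits were measured at a small fraction of the level of the rest. mt-Nd3 had 29.5, 42.8 and 43.4 FPKM in ClpX cKO, 18.8, 20.1 and 20.6 FPKM in ClpP cKO, and 13.8, 9.41 and 9.91 FPKM in controls, from 47 to 261 reads per library. mt-Nd4l had 32.6, 52.9 and 60.2 FPKM in ClpX cKO, 22.8, 20.99 and 20.3 FPKM in ClpP cKO, and 13.2, 14.8 and 18.5 FPKM in controls, from 56 to 305 reads per library. The groups of both genes were separate, with ClpX cKO 1 again the lowest of its group. The log2 change of mt-Nd3 was 1.71 in ClpX cKO (SE 0.17, limma adjusted p = 0.00045) and 0.81 in ClpP cKO (SE 0.17, adjusted p = 0.011). That of mt-Nd4l was 1.56 in ClpX cKO (SE 0.21, adjusted p = 0.00054) and 0.45 in ClpP cKO (SE 0.21, adjusted p = 0.109), so mt-Nd4l was the member that did not pass in ClpP cKO. It did pass there under 5 other settings. Among them were scaling of each library by its own gene reads (log2 change 0.63, limma adjusted p = 0.044) and a fit without ClpX cKO 1 (limma adjusted p = 0.0175). ClpX cKO 1 is not part of the ClpP cKO comparison, and without it the log2 change stayed at 0.45.

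**Figure D1:**
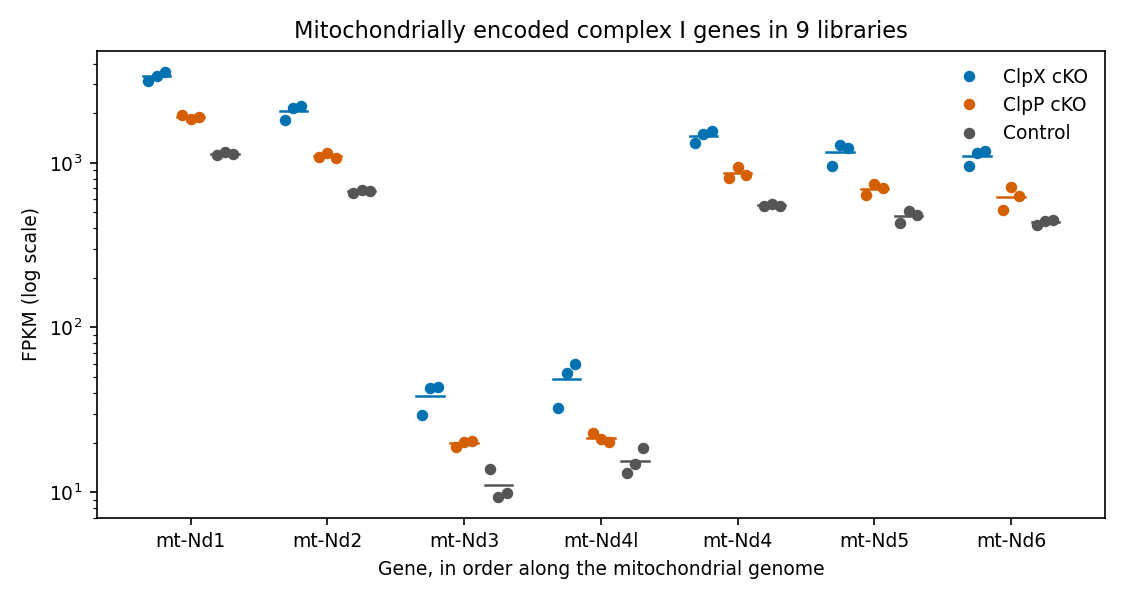
FPKM of the 7 mitochondrially encoded complex I genes (log scale), with 1 point per library, horizontal lines at group means, and the ClpX cKO, ClpP cKO and control libraries from left to right within each gene. In every gene the 3 ClpX cKO points lie above the 3 ClpP cKO points and these above the 3 control points, and mt-Nd3 and mt-Nd4l lie far below the other 5 genes, at 9.41 to 60.2 FPKM.

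Per length, the order of the members was the same in all 3 groups. mt-Nd1 was highest, followed by mt-Nd2, mt-Nd4, mt-Nd5, mt-Nd6, mt-Nd4l and mt-Nd3. In each group the libraries of mt-Nd5 overlapped with those of mt-Nd6, and those of mt-Nd4l with those of mt-Nd3, so these neighbours in the order were not separate, whereas the others were. Mean mt-Nd1 was 1.62, 1.73 and 1.69 times mean mt-Nd2 in ClpX cKO, ClpP cKO and controls. Against mt-Nd3 the ratio was 86.7 in ClpX cKO, 95.5 in ClpP cKO and 103 in controls.

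The low members were those with little unique sequence. In controls, mt-Nd3 and mt-Nd4l, with 2.41% and 1.52% unique windows, had means of 11.1 ± 2.43 and 15.5 ± 2.75 FPKM, against 436 ± 16.8 to 1136 ± 24.9 FPKM (SD, n = 3) in the 4 members with at least 96.8% unique windows. Of the other mitochondrial mRNAs with a chromosome 1 copy, those copied over nearly their whole length were likewise low, with means of 49.0 FPKM for mt-Co2, 28.7 FPKM for mt-Atp6 and 24.99 FPKM for mt-Co3 in controls, at 0.146% to 0.516% unique windows. mt-Co1, of which Gm29216 copies 31.3% and 69.2% of windows were unique, had 2819 FPKM in controls. mt-Atp8 did not follow this order: it had 0.802 FPKM in controls although 100% of its windows were unique among annotated transcripts. It lies between mt-Co2 and mt-Atp6, and the chromosome 1 interval between their copies has no gene in the table. Reads divided by unique 100-base windows, a measure chosen after the values were seen, gave controls a mean of 9.22 reads per window for mt-Nd3 and 22 for mt-Nd4l. The same measure was 21.8 for mt-Nd4, 18.3 for mt-Nd1, 11.1 for mt-Nd2, 7.76 for mt-Nd6 and 7.22 for mt-Nd5. On this scale mt-Nd3 lay within the range of the other members, but its 6 windows make it imprecise. Of these, 3 count as unique only through the annotated end of Gm28438. The measure also takes reads in shared sequence as uncounted, which is not known. mt-Nd4l was the highest of the 7 in controls, but that value gives no level. Its 3 windows count as unique only through the annotated end of Gm10222, and their sequence also lies on chromosome 1. What the copies contribute to the low FPKM was not tested.

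**Figure D2:**
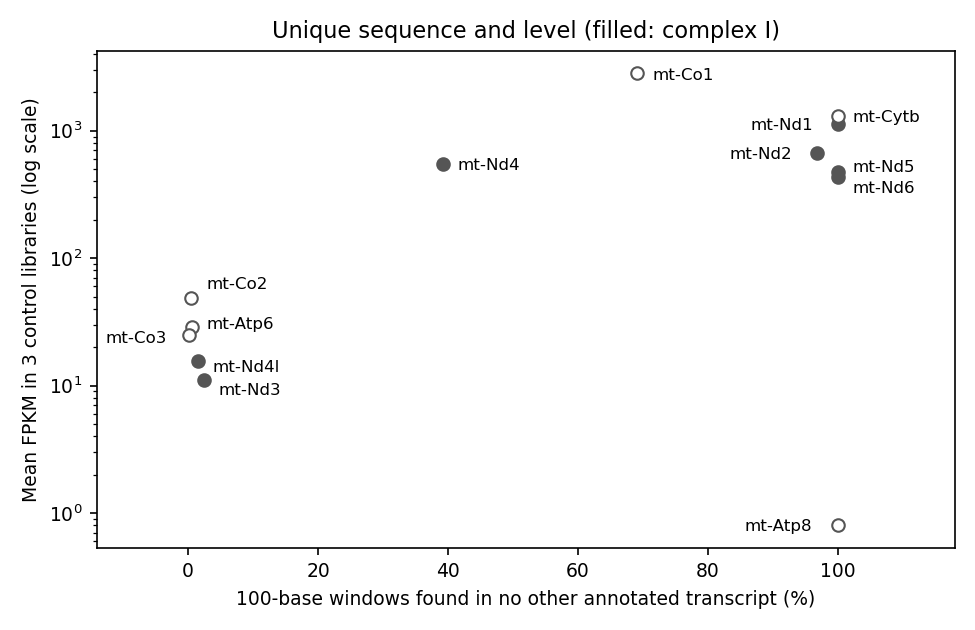
Mean FPKM in the 3 control libraries (log scale) against the percentage of 100-base windows found in no other annotated transcript, for the 7 complex I genes (filled) and the other 6 mitochondrial mRNAs (open). The 5 genes under 3% unique windows lie between 11.1 and 49.0 FPKM, and mt-Atp8, at 0.802 FPKM and 100% unique windows, stands apart from the other fully unique genes.

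The chromosome 1 copies were also higher in ClpX cKO. Gm28438, the copy of mt-Nd3, had 5.85, 3.64 and 4.59 FPKM in ClpX cKO, 2.69, 2.24 and 2.79 FPKM in ClpP cKO, and 2.23, 2.47 and 3.19 FPKM in controls. Gm10222, the copy of mt-Nd4l, had 11.3, 14.0 and 14.8 FPKM in ClpX cKO, 7.49, 6.34 and 5.73 FPKM in ClpP cKO, and 2.61, 4.68 and 4.49 FPKM in controls. For Gm28438 the control and ClpP cKO libraries overlapped, and for both copies the ClpX cKO libraries were above all others. All 7 copies passed the limma test as higher in ClpX cKO against control, with log2 changes of 0.64 (Gm28438) to 1.85 (Gm10925), and Gm10925 and Gm10222 passed in ClpP cKO. Reads of the mitochondrial gene and of its copy cannot be told apart in identical sequence. Each library had 3.13 to 11.9 times as many reads on mt-Nd3 as on Gm28438, 2.91 to 5.09 times as many on mt-Nd4l as on Gm10222, and 117 to 231 times as many on mt-Nd4 as on Gm28439. With the reads of the copy added to the member, the same number of members was called in each comparison.

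Between the knockouts, the members were higher in ClpX cKO than in ClpP cKO in all 3 libraries against all 3, for all 7 genes, where 14.9% of all genes tested were separate in that direction. The log2 change of ClpX cKO against ClpP cKO ran from 0.73 (mt-Nd5) to 1.10 (mt-Nd4l). Only 0.104% of all genes were called in this comparison, 18 of 17266, with 0.0463% called higher, and mt-Nd1 and mt-Nd2 were among them: mt-Nd1 with a log2 change of 0.82 (SE 0.11, limma adjusted p = 0.0393) and mt-Nd2 with 0.90 (SE 0.10, adjusted p = 0.0302). For mt-Nd4 the adjusted p was 0.0501, and for mt-Nd3, mt-Nd4l, mt-Nd5 and mt-Nd6 it was 0.0808. With the replicate number as a block in the fit, 0 of the 7 members and 1 gene in all were called. The count also depended on single libraries. It was 7 of 7 without ClpX cKO 1 or without Control 3, and 0 of 7 without any of the other 7 libraries, while the count over all genes was 4758 without ClpX cKO 1, 445 without Control 3 and 0 to 8 without any of the others. Control 3 is not part of this comparison. Without it the log2 changes of the members stayed at 0.73 to 1.10, so it acts only through the spread estimated over all libraries. ClpX cKO 1 and Control 3 also stood apart in elongating spermatid markers, whose part in these counts was not tested. Summed FPKM of 14 elongating spermatid markers was 2754 in ClpX cKO 1, against 1766 and 1859 in the other ClpX cKO libraries, and it was 8465 in Control 3 while Control 1 had 18280 and Control 2 had 17380.

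The 13 mitochondrial mRNAs did not change by the same amount. On the log2 scale in ClpX cKO, the members changed by 1.28 to 1.71, and the other 6 mRNAs by 0.79 (mt-Atp8) to 1.85 (mt-Atp6). All 6 of these were called higher. mt-Atp8 had 2 to 8 reads per library, and the added 1 FPKM lowers its log2 change: its ratio of mean FPKM was 2.62, beside 2.44 for mt-Nd5 and 2.63 for mt-Nd4. mt-Cytb, the complex III subunit cytochrome b, rose by 1.58 (SE 0.13), while mt-Co1, mt-Co2 and mt-Co3, the core subunits of cytochrome c oxidase, rose by 1.04, 0.90 and 0.82. In ClpP cKO only mt-Atp6 (1.02, limma adjusted p = 0.017) and mt-Cytb (0.70, adjusted p = 0.0091) of these 6 passed. mt-Co1 changed there by 0.42 (SE 0.17, adjusted p = 0.077), which did not pass. In front of mt-Nd1 along the plus strand lie the 16S rRNA gene mt-Rnr2 and the leucine tRNA gene mt-Tl1, and their changes were larger than that of mt-Nd1. mt-Rnr2 had 551, 685 and 700 FPKM in ClpX cKO, 357, 315 and 318 FPKM in ClpP cKO, and 63.3, 67.1 and 74.7 FPKM in controls. mt-Tl1, which ends 1 base before mt-Nd1 begins, had 295, 311 and 341 FPKM in ClpX cKO, 158, 159 and 146 FPKM in ClpP cKO, and 14.0, 18.3 and 16.6 FPKM in controls. It is 75 bases long and had 15 to 437 reads per library. Further in front, the other rRNA gene, mt-Rnr1, changed by 1.19 in ClpX cKO (limma adjusted p = 0.00063), less than mt-Nd1. Its change in ClpP cKO was 0.76 (limma adjusted p = 0.012), and its ClpX cKO and ClpP cKO libraries overlapped. The libraries were made with an mRNA-Seq kit. Values of these rRNA and tRNA genes therefore need not give the levels of the mature RNAs.

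**Figure D3:**
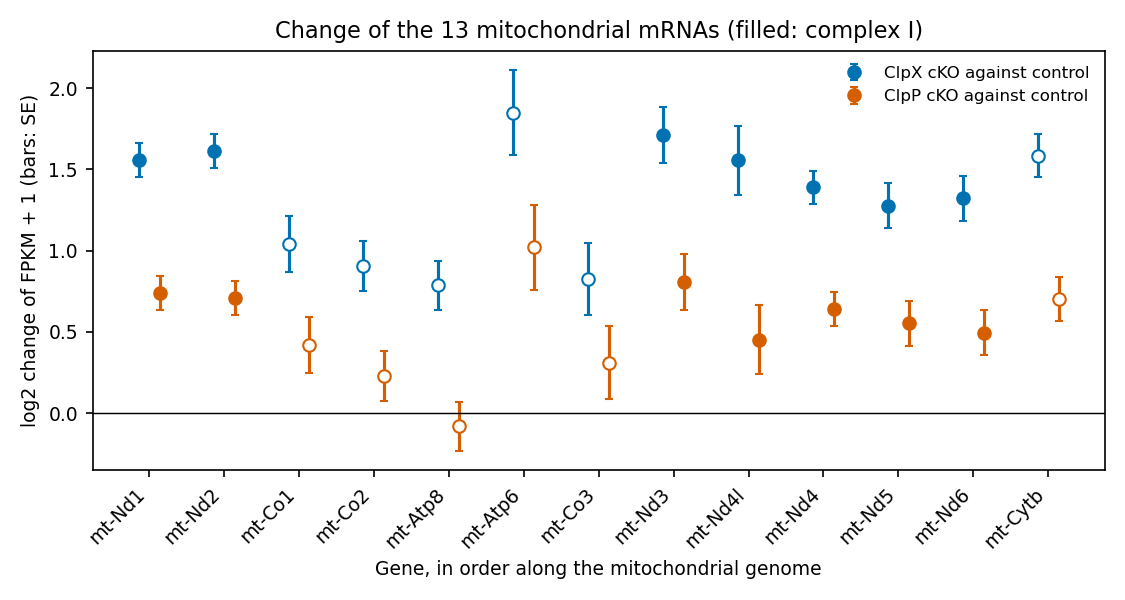
Log2 change of FPKM + 1 against control for the 13 mitochondrial mRNAs in their order along the genome, in ClpX cKO (blue) and ClpP cKO (orange), with SE bars and the complex I genes filled. In ClpX cKO the filled points lie between 1.28 and 1.71, above mt-Co1, mt-Co2, mt-Co3 and, on this scale, mt-Atp8 with its 2 to 8 reads per library, and beside mt-Cytb and mt-Atp6. In ClpP cKO the filled points lie between 0.45 and 0.81.

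Relative to the mitochondrial mRNA pool, the members took 42.4 ± 1.97% of the reads of the 13 mRNAs in ClpX cKO, 40.8 ± 1.43% in ClpP cKO and 38.1 ± 1.01% in controls (SD, n = 3 each). With mt-Co1 left out of the pool, the combined share of the members was on average lower in ClpX cKO than in controls, with overlapping libraries. The differences of single members are given below. A share cannot move when all 13 mRNAs change by the same factor. Shares of single mRNAs were compared over the 3 groups with an exact permutation test on all 1680 arrangements of the libraries, adjusted over the 13 mRNAs. The smallest p this test allows is 0.00357. mt-Nd2 was the member that passed. It made up 9.45%, 8.67% and 8.97% of these reads in ClpX cKO, 8.05%, 7.99% and 8.23% in ClpP cKO, and 7.62%, 7.19% and 7.07% in controls, with 3 separate groups (exact permutation p = 0.00357, adjusted p = 0.0232). mt-Cytb passed with rising shares as well, at means of 19.0% in ClpX cKO, 17.3% in ClpP cKO and 15.7% in controls (adjusted p = 0.0232 in the exact permutation test). mt-Co1 passed with falling shares, at 37.8% in ClpX cKO, 41.2% in ClpP cKO and 45.5% in controls (adjusted p = 0.031 in the exact permutation test). That call was lost without Control 2 or Control 3 (exact permutation adjusted p = 0.0774 each) and without ClpX cKO 1 or ClpX cKO 3 (0.0619 each).

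The other members did not pass. mt-Nd1 made up 13.6 ± 1.195% of the reads of the 13 mRNAs in ClpX cKO, 12.9 ± 0.909% in ClpP cKO and 11.4 ± 0.434% in controls (exact permutation adjusted p = 0.18). mt-Nd5 stood at 8.85 ± 0.223%, 8.98 ± 0.617% and 9.01 ± 0.382% in ClpX cKO, ClpP cKO and controls, and mt-Nd6 at 2.39 ± 0.0684%, 2.28 ± 0.311% and 2.36 ± 0.0388%, both with an adjusted p of 0.957 in the exact permutation test. mt-Co1 alone supplied 37.8% to 45.5% of these reads on average, so its share weighs on every other. With mt-Co1 left out of the pool, mt-Nd2 kept the direction but no longer passed (1.16 percentage points higher in ClpX cKO than in controls, exact permutation adjusted p = 0.0643). The call of mt-Cytb was lost as well (1.89 percentage points higher, exact permutation adjusted p = 0.15). Of the other members, mt-Nd1 (0.96 points), mt-Nd3 (0.016) and mt-Nd4l (0.0085) were then higher in ClpX cKO than in controls. Lower were mt-Nd5 (-2.29 points), mt-Nd4 (-1.01) and mt-Nd6 (-0.485), and none of these passed. Among the 5 mRNAs outside the stretch copied on chromosome 1, a set chosen after the values were seen, mt-Nd2 again passed, with 17.1 ± 0.275% in ClpX cKO, 16.3 ± 0.307% in ClpP cKO and 16.0 ± 0.313% in controls. In that set mt-Nd5 passed too, in the other direction, with 16.8 ± 0.874% in ClpX cKO, 18.1 ± 0.768% in ClpP cKO and 19.7 ± 1.09% in controls (adjusted p = 0.0357 for each in the exact permutation test), while mt-Cytb did not pass (adjusted p = 0.219). Summed over mt-Nd1, mt-Nd2, mt-Nd5 and mt-Nd6, the FPKM was 1.95 ± 0.0947 times that of mt-Cytb in ClpX cKO, 2.03 ± 0.0881 times in ClpP cKO and 2.08 ± 0.0728 times in controls.

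**Figure D4:**
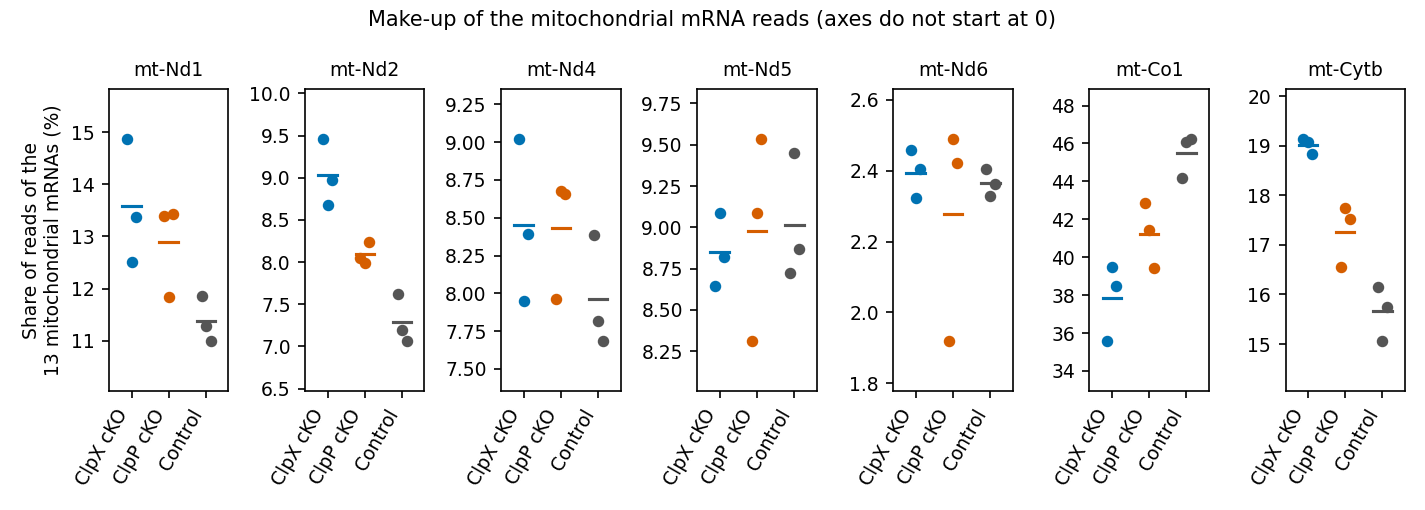
Share of the reads of the 13 mitochondrial mRNAs taken by the 5 complex I genes with most reads and by mt-Co1 and mt-Cytb, with 1 point per library, lines at group means, and axes that do not start at 0. mt-Nd2 and mt-Cytb have their highest shares in ClpX cKO and their lowest in controls, mt-Co1 has the reverse order, and the groups of mt-Nd5 and mt-Nd6 overlap.

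The nuclear genes of complex I had no common direction under the deposited scaling. Of 37 nuclear subunit genes 36 were tested (Ndufb2 was too low), and 7 were called higher and 7 lower in ClpX cKO, with a median log2 change of 0.00 beside 0.00 for all genes. In ClpP cKO 3 were called higher and 6 lower, with a median of -0.01 beside 0.01 for all genes. Of all protein-coding genes, 40.1% were called higher and 30.5% lower in ClpX cKO, and 25.8% higher and 23.5% lower in ClpP cKO. The largest change of a nuclear subunit in ClpX cKO was 0.71 (Ndufa1, a membrane arm subunit named here after its values were seen), below the smallest change of a mitochondrial one, 1.28 (mt-Nd5). By module, the NADH-oxidising N module had 0 higher and 2 lower of 10 in ClpX cKO, the ubiquinone-reducing Q module 1 and 1 of 6, and the membrane arm 6 and 4 of 20. The direction of these calls depended on the scaling between libraries. With each library scaled by its own gene reads, the median of all genes was 0.18 in ClpX cKO and 0.16 in ClpP cKO, and the nuclear subunits had 19 higher and 1 lower in ClpX cKO, and 8 higher and 1 lower in ClpP cKO. Their medians were then 0.21 and 0.17, while the members changed by 1.502 to 1.93 in ClpX cKO and by 0.63 to 0.98 in ClpP cKO.

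Ndufa10, of the membrane arm, had the smallest adjusted p among nuclear subunits. It stood at 15.1, 16.8 and 18.6 FPKM in ClpX cKO, 15.0, 15.9 and 16.3 FPKM in ClpP cKO, and 11.6, 11.2 and 11.2 FPKM in controls, with both knockouts above the controls. Its log2 change was 0.53 in ClpX cKO (SE 0.08, limma adjusted p = 0.00072) and 0.44 in ClpP cKO (adjusted p = 0.0086). Ndufv2, an iron-sulfur subunit of the N module, fell by 0.45 on the log2 scale in ClpX cKO (limma adjusted p = 0.00079) and by 0.23 in ClpP cKO (adjusted p = 0.027). Also lower in both were Ndufb1-ps (-0.44 and -0.39) and Ndufc1 (-0.22 and -0.25), and Ndufab1, the mitochondrial acyl carrier protein, was called higher in ClpX cKO (0.32). These decreases depend on the scaling, since with own totals 1 nuclear subunit in all was called lower in each knockout.

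**Figure D5:**
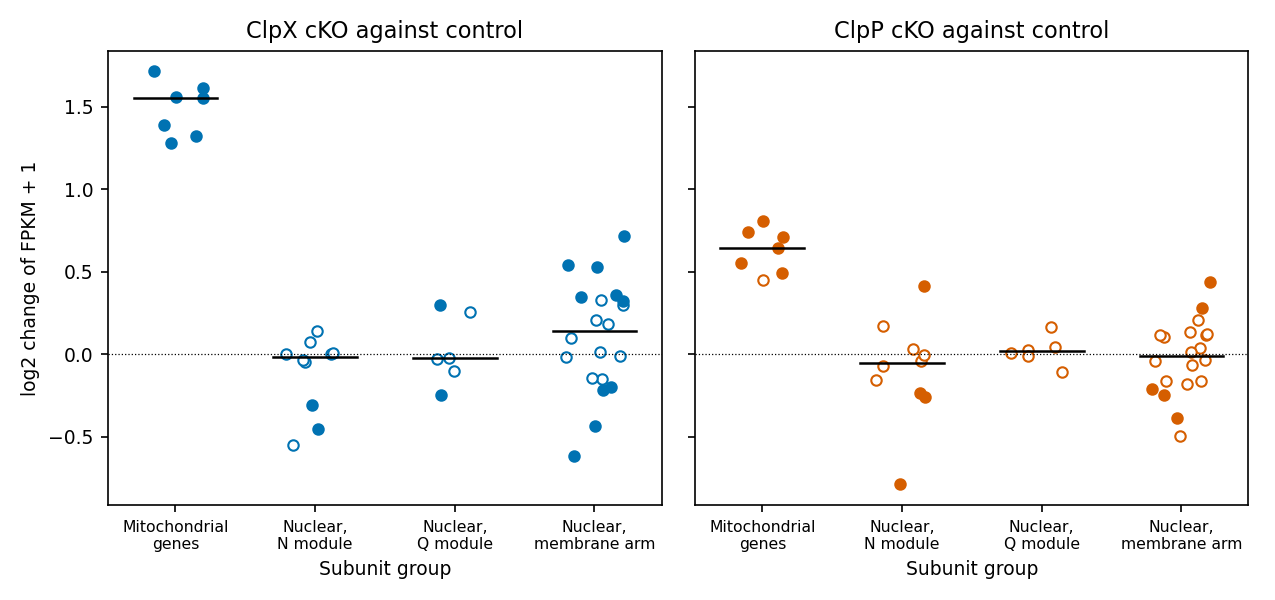
Log2 change of FPKM + 1 against control for complex I genes, with ClpX cKO on the left and ClpP cKO on the right: the 7 mitochondrial genes and the tested nuclear subunits of the N module, the Q module and the membrane arm. Filled points were called at an adjusted p under 0.05 and lines are medians. The mitochondrial genes lie above every nuclear one in ClpX cKO, and the nuclear medians lie close to 0.

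Of 20 complex I assembly factors, which help build the enzyme and are not part of it, 19 were tested, and 8 were called higher and 2 lower in ClpX cKO, with a median log2 change of 0.18. In ClpP cKO 5 were higher and 2 lower, also with a median of 0.18. The counts called higher are close to the 40.1% of protein-coding genes called higher in ClpX cKO and the 25.8% in ClpP cKO. The assembly factors Ndufaf6, Timmdc1, Ndufaf4 and Tmem70 were named by the smallest adjusted p. Ndufaf6 had 2.40, 2.68 and 3.04 FPKM in ClpX cKO, 1.69, 1.82 and 1.66 FPKM in ClpP cKO, and 1.19, 1.27 and 0.891 FPKM in controls, a log2 change of 0.81 in ClpX cKO (SE 0.11, limma adjusted p = 0.00053) and 0.37 in ClpP cKO (adjusted p = 0.027). The groups did not overlap. Timmdc1, needed for the membrane arm, changed by 0.60 in ClpX cKO and 0.48 in ClpP cKO, Ndufaf4 by 0.54 and 0.47, and Tmem70, which acts on ATP synthase as well, by 0.36 and 0.26, and all of these passed. Scaled by own totals the counts were 14 higher and 1 lower in ClpX cKO, and 11 higher and 0 lower in ClpP cKO.

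Genes that transcribe, replicate or process mitochondrial nucleic acids were read from a list of 33 names, of which 30 were tested. In ClpX cKO 12 were called higher and 4 lower, and in ClpP cKO 10 higher and 2 lower, with median log2 changes of 0.09 in both. In ClpX cKO the count called higher is again close to the 40.1% of protein-coding genes, and in ClpP cKO it stands beside 25.8%. The largest change was a fall, in Tfam, the protein that packages mitochondrial DNA and starts its transcription. Tfam had 6.99, 5.99 and 6.80 FPKM in ClpX cKO, 14.5, 10.6 and 12.1 FPKM in ClpP cKO, and 28.3, 28.9 and 16.8 FPKM in controls. The groups were separate, and Control 3 lay closest to the knockouts. The log2 change was -1.72 in ClpX cKO (SE 0.20, limma adjusted p = 0.00045) and -0.91 in ClpP cKO (SE 0.20, adjusted p = 0.011). Elongating spermatid markers fell in the same libraries, 14 of 14 called lower in both knockouts, with summed FPKM of 1766 to 2754 in ClpX cKO, 4859 to 5823 in ClpP cKO and 8465 to 18280 in controls, and their part in the Tfam result was not tested.

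Several other genes of this list were called higher in both knockouts. Mgme1, a mitochondrial exonuclease, had 3.42, 3.94 and 3.47 FPKM in ClpX cKO, 3.34, 3.28 and 3.11 FPKM in ClpP cKO, and 1.77, 1.96 and 1.82 FPKM in controls, and its knockout libraries lay well above the controls. The log2 change was 0.69 in ClpX cKO (SE 0.08, limma adjusted p = 0.00045) and 0.58 in ClpP cKO (adjusted p = 0.0086). Lrpprc, which stabilises mitochondrial mRNAs, changed by 0.46 in ClpX cKO and 0.33 in ClpP cKO. Fastkd1, of a family of mitochondrial RNA-binding proteins, changed by 0.40 and 0.44, and Angel2 by 0.40 and 0.32, and these also passed. Without Control 3 and ClpX cKO 1 the list had 12 higher and 2 lower in ClpX cKO, and 9 higher and 2 lower in ClpP cKO.

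Sertoli cell markers were higher in the same libraries as the members. Of 16 Sertoli cell markers, 15 were tested and all 15 were called higher in both knockouts, with median log2 changes of 0.99 in ClpX cKO and 0.54 in ClpP cKO. Their summed FPKM was 1086 to 1533 in ClpX cKO, 849 to 958 in ClpP cKO and 592 to 620 in controls, and no marker was at 0 in all libraries. The counts of the other marker lists stand beside 40.1% of protein-coding genes called higher in ClpX cKO and 25.8% in ClpP cKO, and 30.5% and 23.5% called lower. Leydig cell markers had 3 of 9 called higher in ClpX cKO and 1 of 9 in ClpP cKO, with sums of 402 to 631 FPKM in ClpX cKO, 412 to 601 in ClpP cKO and 244 to 443 in controls. Peritubular and stromal markers had 5 of 8 higher in ClpX cKO and 2 of 8 in ClpP cKO, with sums of 96.7 to 152, 83.9 to 107 and 63.0 to 97.2 FPKM in ClpX cKO, ClpP cKO and controls. Spermatogonial markers had 9 of 12 higher and 2 lower in ClpX cKO, and 7 higher and 1 lower in ClpP cKO, but their summed FPKM was lower in both knockouts, at 316 to 351 in ClpX cKO, 323 to 339 in ClpP cKO and 407 to 411 in controls. Macrophage markers had 8 of 9 higher in ClpX cKO and 3 of 9 in ClpP cKO, with 1 lower in each, while their summed FPKM, 114 to 124 in ClpX cKO and 107 to 136 in ClpP cKO, was not above the 123 to 167 of controls. Round spermatid markers were lower for 12 of 12 in ClpX cKO and 11 of 12 in ClpP cKO, and pachytene markers for 7 of 12, with 2 higher, in each. The part of these markers in the results on the members was not tested.

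Over the 9 libraries the members followed each other closely, with Pearson r of log2(FPKM + 1) between 0.92 and 0.998 for pairs of members. These values describe libraries that share group and library composition and carry no test. The protein-coding genes outside chromosome MT with the highest r to the mean of the members were Bax (0.993), which permeabilises the outer mitochondrial membrane in apoptosis, Sgk1 (0.992), a kinase, Zbtb20 (0.992), a transcription factor, Slc6a8 (0.992), the creatine transporter, and Lnpep (0.991), an aminopeptidase. Many genes had such a pattern: r was above 0.95 for 982 of 12814 genes. Bax had 9.94, 11.6 and 12.7 FPKM in ClpX cKO, 6.95, 7.38 and 6.61 FPKM in ClpP cKO, and 4.70, 4.40 and 5.26 FPKM in controls, with the 3 groups separate.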

How the data were processed

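RNA was measured in 9 libraries, 3 per group, made with the SMARTER mRNA-Seq kit per the labels' protocols. The authors deposited 1 table of FPKM values for 54532 genes, with gene positions and lengths in bases (a column in another unit), per the file headers. GRCm38 (mm10) is the build per the submitters' processing notes, while the aligner, the counter and the handling of reads that match several places are not given in the sources used here. The library-size denominator that the deposited FPKM imply was 1.07 ± 0.017 times the library's own gene reads in ClpX cKO, 1.05 ± 0.0037 in ClpP cKO and 0.919 ± 0.028 in controls (mean ± SD, n = 3). The origin of this factor is not stated. Scaling the deposited values again by each library's median ratio to the geometric mean of all libraries changed little. It called 11327 genes in ClpX cKO against control, beside 11326, and 7729 in ClpP cKO, beside 7722. The median change of all genes, near 0 here, is thus set by the deposited scaling.

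A joint model of the 9 libraries was fitted to log2(FPKM + 1) of genes averaging 1 FPKM or more (limma 3.58.1 under R 4.3.3, prior variance with a trend, two-sided). Fold changes on this scale understate the change of low genes. Reads were FPKM times length in whole steps. Counts of list members are of calls over all genes. Shares were tested with exact permutation tests. Sequences and windows came from GENCODE M21 with Biopython 1.88; positions, strands and transcript lengths of the members and the chromosome 1 copies matched the table for 14 of 14. Python 3.11.15, pandas 2.3.3, numpy 2.4.6 and matplotlib 3.10.9 were used, and the fit was tested on simulated data. Those had few changed genes, as many up as down, and were scaled by own totals. They therefore do not check the fit under the deposited scaling or with as many changes as here. Named genes were the members, Clpp, Clpx, the other mitochondrial mRNAs, the chromosome 1 copies, up to 3 called members of each list and knockout with the smallest adjusted p, and the 5 protein-coding genes with the highest r to the members. mt-Rnr1, mt-Rnr2, mt-Tl1 and Ndufa1 were added after their values were seen. The members, lists and tests were chosen with earlier results of these data known. Alternatives were a pseudocount of 0.1, other filters on low values, other scalings, limma voom on the recovered reads, fits on 6 libraries, a block for the replicate number, a robust variance prior, other denominators for shares, and leaving out libraries. Adding the reads of the chromosome 1 copies, the set of 5 mRNAs and the list counts under other settings were added after the values were seen.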

Additional observations from a re-analysis of the deposited data

How the results depend on the processing

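All 7 members were called higher in ClpX cKO against control under every setting tried, with log2 changes of 1.196 to 2.02. In ClpP cKO against control 6 were called, and 3 with no filter on low values (mt-Nd2, mt-Nd3 and mt-Nd4), where 41170 genes were tested. Leaving out a library gave 4 to 7 members and 3617 to 8729 genes called in that comparison, against 7722 with all. With a mean FPKM of at least 5, where 9404 genes were tested, 6871 genes were called in ClpX cKO against control. ClpX cKO against ClpP cKO was the comparison that moved most. Against 2 members and 18 genes, it gave 7 members and 828 genes with limma voom on recovered reads, 1 member and 89 genes in a fit of the 6 libraries compared, 29 genes with quantile normalization, and 0 members with no filter. Leaving out a library gave 0 to 7 members and 0 to 4758 genes, and a fit with neither Control 3 nor ClpX cKO 1 gave 7 members and 5149 genes. Where 0 genes were called, without ClpP cKO 1 or ClpP cKO 3, 3148 and 3677 genes had an unadjusted limma p under 0.05. Under quantile normalization mt-Nd1 had the same rank in both knockouts, and its log2 change between them was 0.00. Leaving out a control library left the log2 changes between the knockouts as they were, so it acted only through the spread estimated over all libraries. The cause of the other shifts was not tested.

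Correlations of deviations between same-numbered libraries ran from -0.0702 to 0.234, and between other-numbered libraries from -0.237 to 0.113. The highest values were thus between same-numbered libraries. All same-numbered values except that of Control 3 with ClpP cKO 3 were positive, while other-numbered values were often negative. The labels do not say whether the numbers pair the libraries. With the number as a block, ClpX cKO against ClpP cKO had 0 members and 1 gene called, and the counts of members against control did not change.

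Among shares of the 13 mRNAs, the call of mt-Cytb was lost without mt-Co1 and among the 5 mRNAs, and that of mt-Co1 without Control 2, Control 3, ClpX cKO 1 or ClpX cKO 3. Of the members, the mt-Nd2 difference between ClpX cKO and controls was 1.16 percentage points and no longer passed without mt-Co1, the mt-Nd5 difference was -2.98 points and passed among the 5 mRNAs, and that of mt-Nd3, between 0.0118 and 0.022 points without single libraries, passed without Control 1. Scaling by own totals moved the share of higher calls from 49.0% to 63.3% in ClpX cKO and from 46.3% to 71.4% in ClpP cKO. Under it nuclear subunits had 19 higher and 1 lower in ClpX cKO, and 8 and 1 in ClpP cKO, assembly factors 14 and 1, and 11 and 0, and mitochondrial transcription and RNA genes 1 lower in each. Without Control 3 and ClpX cKO 1, nuclear subunits had 1 higher in ClpP cKO and the transcription list 2 lower in ClpX cKO. Depth limits mt-Nd3 and mt-Nd4l, with 47 to 305 reads per library.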
